A study of Mus musculus with 12 samples.

Results

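The 9 genes named as marks of type 2 conventional dendritic cells (cDC2), Sirpa, Tgm2, Dscam, Cd101, Cd7, Ltb, Tbx21, Tmem176a and Tmem176b, were followed in mouse spleen without the FLT3 ligand, without its receptor FLT3, and in wild type (WT). They are 9 of the 19938 genes with a value, and all 9 passed the filter on dim genes that left 14953 genes for testing. They were chosen by their higher intensity in cDC2 than in cDC1, as cDC2-linked genes listed with results of these arrays in view, so that difference is given as a description. Each is read from 1 probe set. RNA from mature cDC2 and cDC1 sorted from spleens at steady state was hybridised to 12 one-colour gene arrays, with 2 biological replicates in each of 6 groups: Flt3L KO cDC2, Flt3 KO cDC2, WT cDC2, Flt3L KO cDC1, Flt3 KO cDC1 and WT cDC1. The knockouts are labelled as whole-animal genotypes of Flt3 or of Flt3L. The labels do not give the strain, the age, the gate of the sort or how many spleens went into an array, and the p-values cover no more than the variation among these arrays. The question put to each gene was how far its level depends on the receptor or on the ligand.

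FLT3 is a receptor tyrosine kinase of haematopoietic progenitors and dendritic cells, and FLT3 ligand, encoded by Flt3l, is its known growth factor. Mice without the ligand have few conventional dendritic cells, and the arrays measured RNA of the cells that remained. Conventional dendritic cells fall into cDC1, which depend on the transcription factors IRF8 and BATF3 and cross-present antigen to CD8 T cells, and cDC2, which use IRF4 and mainly prime CD4 T cells. In the spleen, SIRPA is the surface protein commonly used to tell cDC2 from cDC1, and T-bet (Tbx21) marks one subset of mouse cDC2.

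Flt3 itself averaged 1642 ± 6.15 intensity units in Flt3L KO cDC2, 361 ± 14.7 in Flt3 KO cDC2 and 1779 ± 53.2 in WT cDC2 (SD, n = 2 each), and 2441 ± 20.6, 363.7 ± 9.58 and 2299 ± 47.6 in Flt3L KO, Flt3 KO and WT cDC1. The Flt3 KO labels therefore go with a level that was 20.3% of WT in cDC2 and 15.8% in cDC1. The Flt3l probe set averaged 113.5 in Flt3L KO cDC2, 134.7 in Flt3 KO cDC2 and 146.9 in WT cDC2. It was 77.2% of WT in Flt3L KO cDC2 (adjusted p = 0.0267) and 110% in Flt3L KO cDC1 (adjusted p = 0.403), and it does not check the Flt3L KO label, because the deleted part is not given. The cell type labels went with their markers: Xcr1 lay between 56.3 and 73.7 on the cDC2 arrays and between 2421 and 3020 on the cDC1 arrays, and Irf4 between 785.1 and 1064 on the cDC2 arrays and between 100.7 and 169.2 on the cDC1 arrays. Zbtb46, shared by conventional dendritic cells, lay between 225.2 and 314.3 on all 12 arrays. Median intensity per array was 58.96 to 62.97. The WT cDC1 pair differed most from each other: the SD of the log2 difference between its 2 arrays over genes was 0.21, against 0.131 to 0.154 in the other 5 groups, and the lower quartile of its replicate 1 was 25.73, against 23.31 to 24.31 on the other 11 arrays. Without WT cDC1 replicate 2, 606 genes were called in Flt3L KO cDC1 in place of 178, and 1132 in Flt3 KO cDC1 in place of 12, so each called difference of the 9 genes from WT cDC1, and each that passed without 1 of these arrays, is given with and without them.

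All 9 genes were brighter on each of the 6 cDC2 arrays than on any of the 6 cDC1 arrays. This is the property the genes were listed for, so nothing about dependence on FLT3 or its ligand is read from it. For background, 15.9% of all genes tested were higher in cDC2 in Flt3L KO, 16.4% in Flt3 KO and 18.4% in WT (limma, adjusted p under 0.05), and nothing is read from the members' count against these shares. The size of the bias differed between genes. The cDC2 minus cDC1 difference of Sirpa was 4.74, 5.12 and 5.10 on the log2 scale in Flt3L KO, Flt3 KO and WT, that of Tgm2 was 4.90, 5.07 and 4.92, and that of Dscam was 4.76, 5.10 and 4.87. Cd7 stood at 3.15, 3.36 and 3.78 in the same order, and Ltb, Tbx21, Tmem176a and Tmem176b between 1.89 and 2.70. Cd101 had the smallest difference in Flt3L KO, 1.10, against 1.99 in Flt3 KO and 2.04 in WT.

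**Figure D1:**
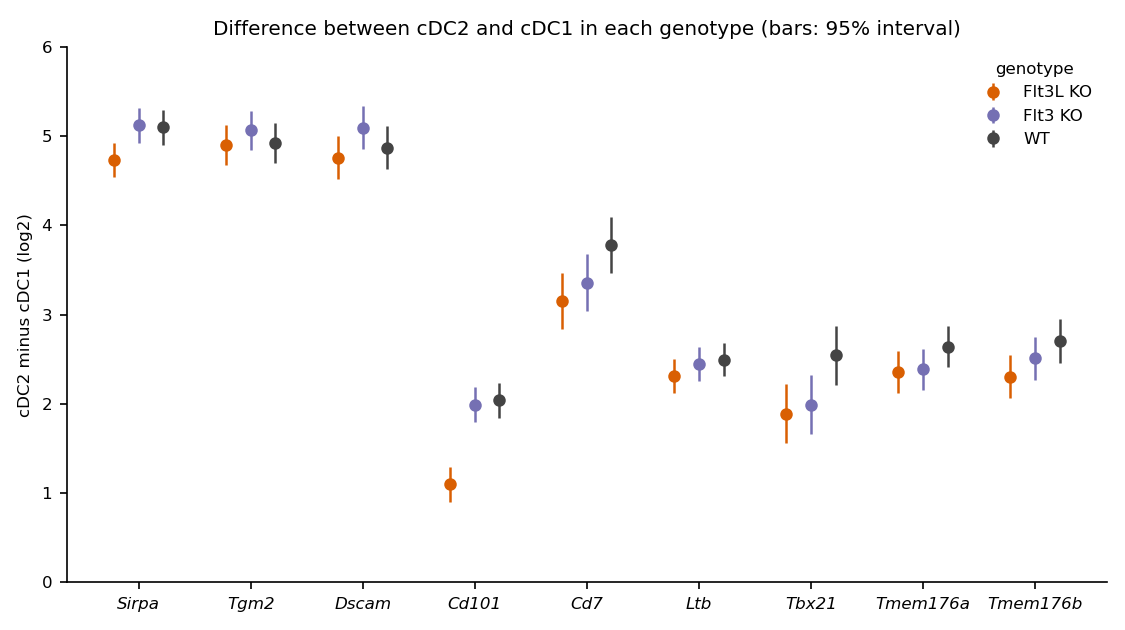
The log2 difference between cDC2 and cDC1 (vertical axis) is plotted for the 9 genes in Flt3L KO, Flt3 KO and WT, with bars for the 95% interval of the limma fit. Sirpa, Tgm2 and Dscam lie between 4.74 and 5.12 in the 3 genotypes, and Cd101 in Flt3L KO, at 1.10, lies apart from its values of 1.99 and 2.04 in Flt3 KO and WT.

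In cDC2, 1 of the 9 genes passed the test without the ligand, and 0 passed it without the receptor, where Cd101 came closest. Cd101 fell in Flt3L KO cDC2 to 49.5% of WT, and the other 8 had values between 84.2% and 112% of WT that did not pass the test. Of all genes tested, 1.95% were called in Flt3L KO cDC2, and 0.91% were called lower. An unadjusted p under 0.05 there was held by 2 of the 9 genes and by 2185 of all 14953 genes tested. The median log2 difference was -0.05 over the 9 genes and 0.02 over all genes tested. In Flt3 KO cDC2, 0 of the 9 were called by limma, against 0.107% of all genes, and 4 of the 9 had an unadjusted p under 0.05, against 7.28% of all genes. The medians there were 0.04 over the 9 genes and 0.01 over all genes tested. Both comparisons use the same 2 WT cDC2 arrays. The RNA came from sorted populations, in which a smaller share of expressing cells and less RNA per cell cannot be told apart.

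**Figure D2:**
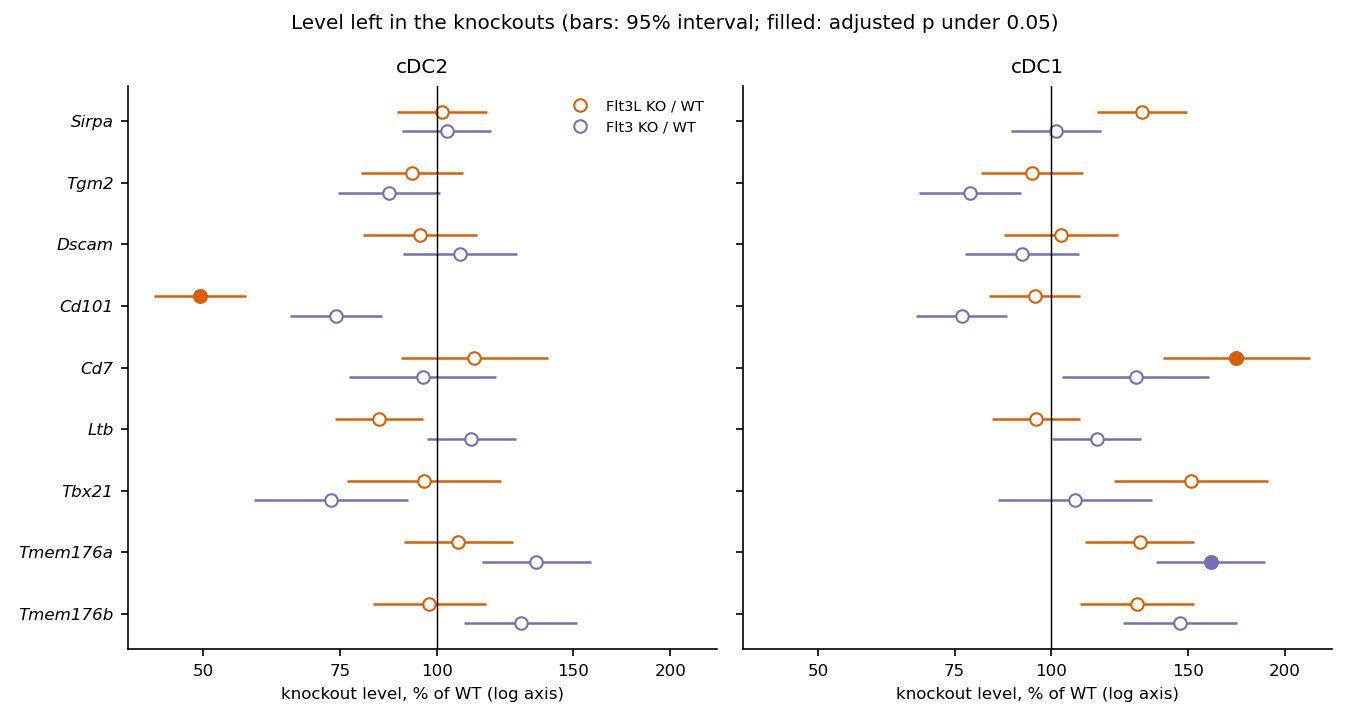
Level of each gene in Flt3L KO and Flt3 KO as a percent of WT (horizontal log axis), in cDC2 (left panel) and cDC1 (right panel), with bars for the unadjusted 95% interval and filled points for an adjusted p under 0.05. The filled points are Cd101 in Flt3L KO cDC2 (49.5%), Cd7 in Flt3L KO cDC1 (173%) and Tmem176a in Flt3 KO cDC1 (160%).

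Cd101 encodes an immunoglobulin superfamily surface protein of myeloid cells and T cells that is known as an inhibitory receptor. Its intensity was 78.7 and 81.7 on the Flt3L KO cDC2 arrays, 123.2 and 116.9 on the Flt3 KO cDC2 arrays and 165.6 and 158.3 on the WT cDC2 arrays. The 3 genotypes did not overlap, and Flt3 KO lay between Flt3L KO and WT. Cd101 fell by 1.01 ± 0.09 (SE) on the log2 scale in Flt3L KO cDC2 relative to WT, with an adjusted p = 0.000159 and an unadjusted 95% interval of 43.2% to 56.7% of WT. In Flt3 KO cDC2 it stood at 74.1% of WT (95% interval 64.8% to 84.9%, adjusted p = 0.139). Both Flt3 KO arrays lay below both WT arrays, but the difference did not pass over all genes. It passed on log2(intensity + 16), with an adjusted p = 0.0484. The knockouts also differed from each other in cDC2: Cd101 was at 66.8% in Flt3L KO of its level in Flt3 KO, a log2 difference of -0.58 ± 0.09 with an adjusted p = 0.0116. It was the 1 gene of the 9 called in that comparison, where 0.93% of all genes were called, and the call was lost without Flt3L KO cDC2 replicate 1 (log2 -0.56, adjusted p = 0.126), Flt3 KO cDC2 replicate 1 (-0.54, 0.0856) or Flt3 KO cDC2 replicate 2 (-0.62, 0.0693), with the difference about as large each time.

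On the cDC1 arrays Cd101 was dim, at 37.5 and 37.4 in Flt3L KO, 29.9 and 30.5 in Flt3 KO and 43.3 and 35.8 in WT. There the Flt3L KO arrays lay within the WT range and the Flt3 KO arrays below it. Cd101 stood at 95.2% of WT in Flt3L KO cDC1 (95% interval 83.1% to 109%, adjusted p = 0.727) and at 76.7% in Flt3 KO cDC1 (adjusted p = 0.184). The Flt3 KO difference was -0.38 on the log2 scale, -0.25 without WT cDC1 replicate 1 and -0.52 without WT cDC1 replicate 2. The ligand knockout's effect in cDC2 minus that in cDC1 was -0.94 ± 0.13 (SE) on the log2 scale, with an adjusted p = 0.00693. It was -1.08 without WT cDC1 replicate 1 (adjusted p = 0.00236) and -0.81 without WT cDC1 replicate 2 (adjusted p = 0.00904). Cd101 was the 1 gene of the 9 called for this difference of effects, against 0.495% of all genes. This contrast equals the change in the cDC2 minus cDC1 difference, the measure for which the genes were listed, so its p is not independent of the listing. All 9 genes had a value below 0 in it, with a median of -0.36 against 0.03 over all genes tested, and nothing is read from that direction because of the listing. For the receptor knockout the difference of effects was called for 0 of 9 genes, against 0% of all genes by limma, and 1 of 9 (Tbx21) and 8.97% of all genes had an unadjusted p under 0.05.

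The promoter window of Cd101 is shown because Cd101 is the member whose level fell in cDC2. It is chr3:101029504-101029803 on the minus strand of GRCm38.p6, 250 bases before to 50 bases after the start in RefSeq, written 5′ to 3′, with the letters AGGAAG in either orientation (CTTCCT on the strand shown), a core of ETS family sites such as those of PU.1, in capitals.
Cd101: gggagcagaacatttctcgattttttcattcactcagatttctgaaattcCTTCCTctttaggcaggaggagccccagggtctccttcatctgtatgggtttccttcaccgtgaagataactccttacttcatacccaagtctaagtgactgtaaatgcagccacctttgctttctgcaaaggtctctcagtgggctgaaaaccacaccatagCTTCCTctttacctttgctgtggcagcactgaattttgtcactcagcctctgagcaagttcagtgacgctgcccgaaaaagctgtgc
The window held 2 such matches, and 35.4% of all 32851 promoter windows of that length hold at least 1, so the match is a description of the letters only. Neither a composite of ETS and IRF letters (GGAA and GAAA with any 2 letters between), held by 2.72% of windows, nor GGTGTGA, a T-box core held by 3.98%, was found in any window of the 6 members in the promoter table (Cd101, Dscam, Ltb, Tbx21, Tmem176a and Tmem176b), both strands searched.

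Sirpa, Tgm2 and Dscam, the genes with the largest cDC2 bias, had levels between 86.7% and 107% of WT in cDC2 of both knockouts, none of which passed the test. Sirpa, the inhibitory receptor for CD47, had 3751 and 3626 intensity units in Flt3L KO cDC2, 3695 and 3776 in Flt3 KO cDC2 and 3585 and 3674 in WT cDC2. The Flt3L KO pair overlapped the others, and the Flt3 KO pair lay just above the WT pair. The level was 102% of WT in Flt3L KO (95% interval 88.9% to 116%, adjusted p = 0.939) and 103% in Flt3 KO (90.0% to 118%, adjusted p = 0.964). Changes inside these intervals were not detectable with 2 arrays per group.

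Tgm2, a transglutaminase that crosslinks proteins, had 2709 and 2503 in Flt3L KO cDC2, 2545 and 2319 in Flt3 KO cDC2 and 2733 and 2872 in WT cDC2. Both knockouts lay below WT without overlap. The levels were 93.0% of WT in Flt3L KO (95% interval 79.8% to 108%, adjusted p = 0.699) and 86.7% in Flt3 KO (74.5% to 101%, adjusted p = 0.718). Dscam, an immunoglobulin superfamily adhesion molecule best known from neurons, had 815.4 and 932.6 in Flt3L KO cDC2, 869.5 and 1109 in Flt3 KO cDC2 and 922.7 and 911.6 in WT cDC2. The WT arrays lay inside the range of each knockout. The level was 95.1% of WT in Flt3L KO (95% interval 80.3% to 113%, adjusted p = 0.826) and 107% in Flt3 KO (90.4% to 127%, adjusted p = 0.928).

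On the cDC1 arrays Sirpa and Tgm2 lay just above the median of an array and Dscam below it. Sirpa read 149.3 and 128.4 in Flt3L KO, 101.4 and 113.3 in Flt3 KO and 109.1 and 102.7 in WT, so the Flt3L KO pair lay above the others. It stood at 131% of WT in Flt3L KO cDC1 (95% interval 114% to 149%, adjusted p = 0.0599) and at 129% of its Flt3 KO level (adjusted p = 0.0747), neither of which passed in the main model. Both passed with the lowest 0.5 of genes left out, with a trended and robust variance prior and on log2(intensity + 16). Tgm2 read 82.8 and 91.7 in Flt3L KO, 66.5 and 78.9 in Flt3 KO and 87.4 and 97.4 in WT. It stood at 78.5% of WT in Flt3 KO cDC1 (adjusted p = 0.257). Dscam lay between 27.2 and 33.6 on all 6 cDC1 arrays, near the lower quartile of an array, which was 23.31 to 25.73.

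Cd7, an immunoglobulin superfamily protein known from T and NK cells, was bright in cDC2 of all genotypes and rose in cDC1 without the ligand. In cDC1 it read 645.4 and 452 in Flt3L KO, 427 and 375.8 in Flt3 KO and 278.5 and 349.8 in WT. The 3 genotypes did not overlap, and the Flt3L KO arrays were the highest. Cd7 was at 173% of WT in Flt3L KO cDC1 (95% interval 139% to 215%), a log2 difference of 0.79 ± 0.15 (SE) with an adjusted p = 0.0266. It was the 1 gene of the 9 called there, against 1.19% of all genes, and 5 of the 9 had an unadjusted p under 0.05, against 17.1% of all genes. The median over the 9 genes was 0.37 and over all genes -0.01. The call was lost without Flt3L KO cDC1 replicate 1, where the difference was 0.53 (adjusted p = 0.185), and without WT cDC1 replicate 1, where it was 0.63 (adjusted p = 0.0988). Without WT cDC1 replicate 2 it was 0.96 (adjusted p = 0.0132). In Flt3 KO cDC1 the level was 128% of WT (adjusted p = 0.361).

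In cDC2, Cd7 read 4768 and 4834 in Flt3L KO, 4253 and 3982 in Flt3 KO and 4296 and 4290 in WT. The levels were 112% of WT in Flt3L KO (95% interval 89.9% to 139%, adjusted p = 0.678) and 95.9% in Flt3 KO (77.1% to 119%, adjusted p = 0.966). Because Cd7 is also a lymphocyte gene, T cell and NK cell markers were read beside it. Cd3d lay between 25.7 and 36.5, Ncr1 between 14.0 and 19.6 and Klrb1c between 11.6 and 15.1 on all 12 arrays. The summed T cell list was 675.2 to 680.9 in Flt3L KO cDC1, 662.3 to 685.5 in Flt3 KO cDC1 and 700.7 to 737.6 in WT cDC1, and that of the NK cell list was 411.7 to 443 in Flt3L KO cDC1, 420 to 451 in Flt3 KO cDC1 and 391 to 402.3 in WT cDC1. The NK sum was thus higher in both knockouts than in WT, as Cd7 was, and the T cell sum was lower. Cd226 and Klrk1, given below among the genes most like Cd7, are not in the NK list. On average Klrd1 alone, given next, rose by more than the NK sum did. Klrd1, an NK receptor subunit gene, read 185.4 and 145.3 in Flt3L KO cDC1, 186.7 and 160.1 in Flt3 KO cDC1 and 111.9 and 139.3 in WT cDC1 (131% of WT in Flt3L KO, adjusted p = 0.152). It is itself higher in cDC2, with 1284 to 1542 on the 6 cDC2 arrays. Among the 4 NK and 10 T cell markers tested in Flt3L KO cDC1, 0 were called by limma, and 1 and 2 had an unadjusted p under 0.05. The part of these markers in the Cd7 values was not tested.

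**Figure D3:**
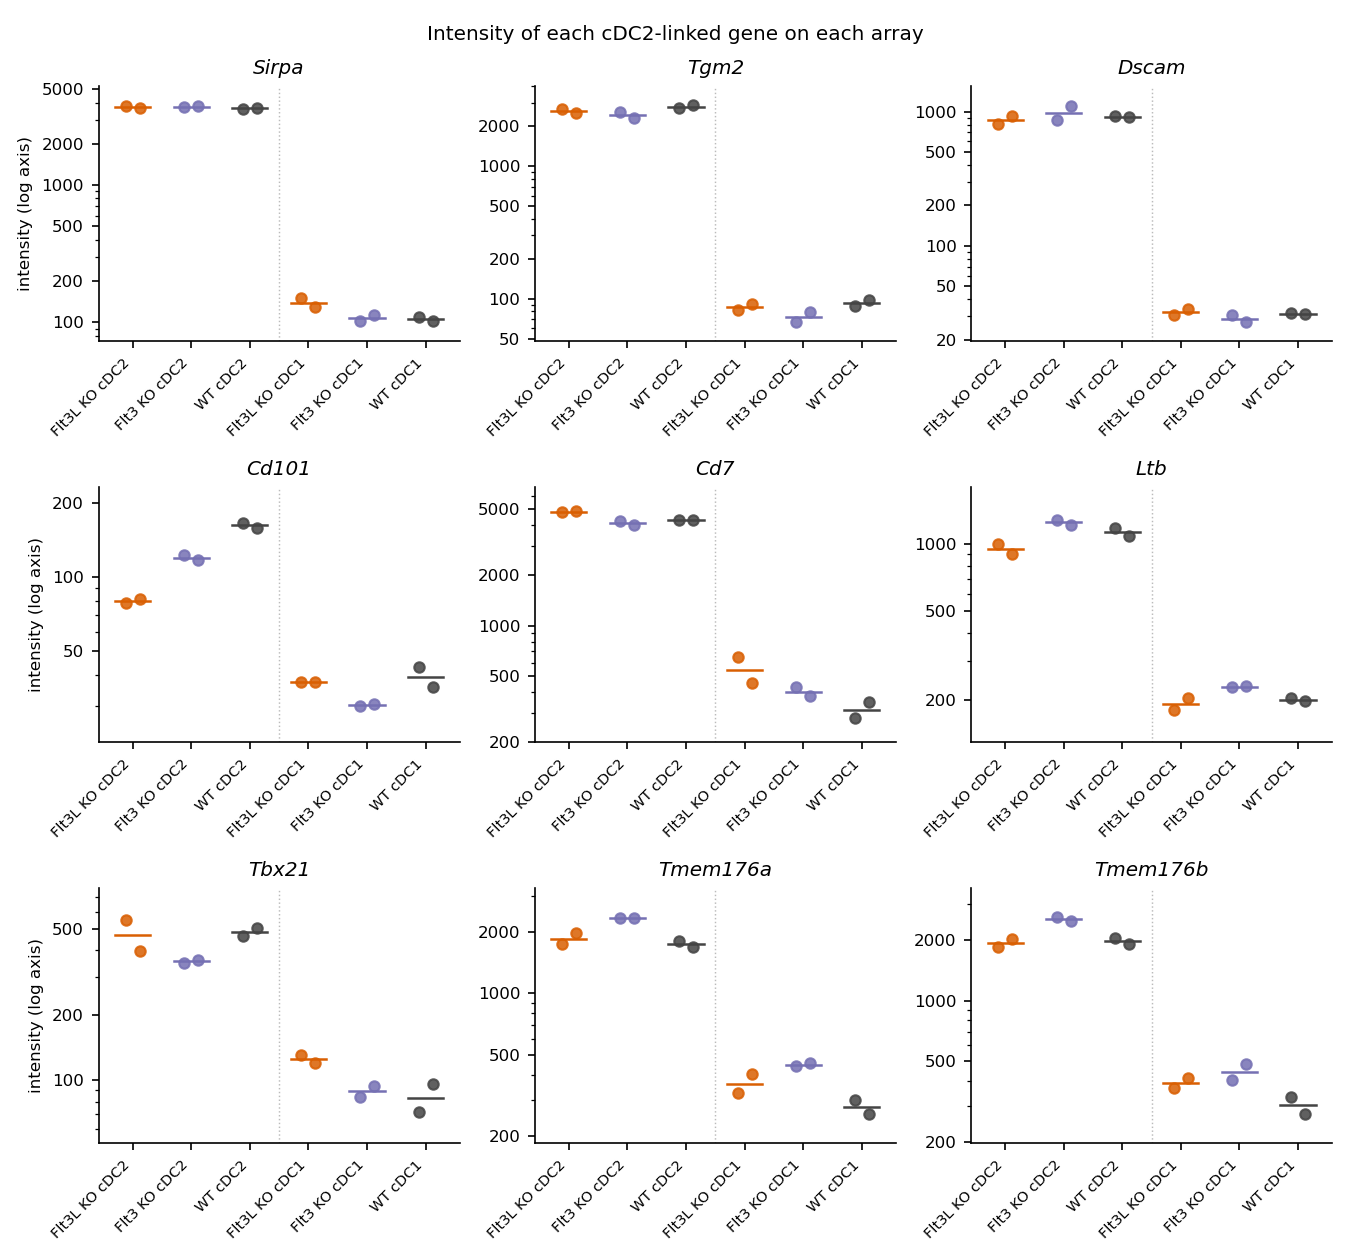
Intensity of each gene on each of the 12 arrays (vertical log axis, 1 panel per gene), with points for arrays and a line for the mean of each of the 6 groups. For all 9 genes the 6 cDC2 arrays lie above the 6 cDC1 arrays, and the Cd101 panel shows 78.7 and 81.7 in Flt3L KO cDC2 against 165.6 and 158.3 in WT cDC2.

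Ltb encodes lymphotoxin beta, which anchors lymphotoxin alpha at the membrane and signals through the lymphotoxin beta receptor to non-canonical NF-kB. In cDC2 it read 1001 and 906.8 in Flt3L KO, 1291 and 1219 in Flt3 KO and 1182 and 1084 in WT. The order was Flt3 KO, WT and Flt3L KO, with no overlap between neighbours. Ltb stood at 84.2% of WT in Flt3L KO cDC2 (95% interval 73.8% to 96.0%, adjusted p = 0.195), at 111% in Flt3 KO cDC2 (97.2% to 126%, adjusted p = 0.806) and at 75.9% in Flt3L KO of its Flt3 KO level (66.6% to 86.6%, adjusted p = 0.0584). Between the knockouts Ltb passed with the lowest 0.5 of genes left out, with a trended and robust variance prior and on log2(intensity + 16). In cDC1 it read 180 and 203.6 in Flt3L KO, 228.5 and 230.4 in Flt3 KO and 204.6 and 196.5 in WT, with no call in any comparison (adjusted p = 0.173 to 0.739). Of all genes tested, 1.19% were called in Flt3L KO cDC1 and 1.95% in Flt3L KO cDC2, where 2185 of 14953 had an unadjusted p under 0.05. Of 11 genes of the lymphotoxin and non-canonical NF-kB pathway tested, 1 was called in Flt3L KO cDC1. In Flt3L KO cDC2 0 of them were called, and 2 had an unadjusted p under 0.05. The called gene was Relb, the NF-kB subunit that acts at the end of this pathway, at 602.1 and 633.3 in Flt3L KO cDC1, 513.9 and 575 in Flt3 KO cDC1 and 449.5 and 427 in WT cDC1. Relb was 141% of WT in Flt3L KO cDC1 (0.50 ± 0.08 on the log2 scale, adjusted p = 0.013). Leaving out either Flt3L KO cDC1 array raised the adjusted p to 0.085.

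Tbx21 encodes T-bet, the T-box transcription factor of type 1 lymphocytes and of one cDC2 subset. In cDC2 it read 550 and 395.1 in Flt3L KO, 346.9 and 360.7 in Flt3 KO and 463.7 and 505.4 in WT. The Flt3L KO arrays enclosed the WT arrays, while the Flt3 KO arrays lay below both. Tbx21 stood at 73.1% of WT in Flt3 KO cDC2 (95% interval 58.1% to 91.9%, adjusted p = 0.467), at 96.3% in Flt3L KO cDC2 (76.6% to 121%, adjusted p = 0.915) and at 132% in Flt3L KO of its Flt3 KO level (adjusted p = 0.295). In cDC1 it read 130.6 and 120.7 in Flt3L KO, 83.9 and 94.6 in Flt3 KO and 71.8 and 96.1 in WT, with the Flt3L KO pair above the rest. That level was 151% of WT (95% interval 120% to 190%, adjusted p = 0.0794) and 141% of Flt3 KO (adjusted p = 0.144). The difference from WT passed with a trended and robust variance prior. On the log2 scale this difference from WT was 0.60, and it was 0.39 without WT cDC1 replicate 1 and 0.81 without WT cDC1 replicate 2. The ligand effect in cDC2 minus that in cDC1 was -0.65, and -0.86 without WT cDC1 replicate 2. It lay between -0.89 and -0.41 over all alternatives. In the comparison of the knockouts in cDC1, 0 of the 9 genes were called by limma, against 0.883% of all genes, and 7 of the 9 had an unadjusted p under 0.05, against 15.8% of all genes.

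Of 11 tested genes of the T-bet programme, 0 were called in Flt3L KO cDC2 and 0 in Flt3 KO cDC2, with 2 at an unadjusted p under 0.05 in each. Of all 14953 genes tested, 2185 in Flt3L KO cDC2 and 1089 in Flt3 KO cDC2 had such a p. Stat4, a transcription factor of interleukin 12 signalling, was called higher in Flt3L KO cDC1, at 148% of WT (0.57 ± 0.11 on the log2 scale, adjusted p = 0.0282). Stat4 read 311.1 and 326 in Flt3L KO cDC1, 290.7 and 314.9 in Flt3 KO cDC1 and 218.6 and 211.7 in WT cDC1. Its effect in cDC2 minus that in cDC1 was -0.86 ± 0.15 for the ligand knockout (adjusted p = 0.0296). Between the knockouts, the interleukin 12 receptor subunit gene Il12rb2 was higher in Flt3L KO cDC2 than in Flt3 KO cDC2 (0.61 ± 0.11, adjusted p = 0.0288), and the receptor gene Il2rb was higher in Flt3L KO cDC1 than in Flt3 KO cDC1 (0.53 ± 0.11, adjusted p = 0.043). On leaving out 1 array, the call of Stat4 in cDC1 was lost in 3 of 4 cases, that of its difference of effects in 5 of 8, that of Il12rb2 in 3 of 4 and that of Il2rb in 4 of 4, with the sign kept. Of 9 genes linked to the T-bet-marked cDC2 subset, 2 were called lower in Flt3L KO cDC2: the lectin gene Clec4a4 (-0.70 ± 0.13, adjusted p = 0.0185) and the metalloproteinase gene Mmp9 (-1.08 ± 0.22, adjusted p = 0.0267). Of all 14953 genes tested there, 136 were called lower. Mmp9 read 47.9 and 56.8 in Flt3L KO cDC2, 60.1 and 87.2 in Flt3 KO cDC2 and 83.4 and 145 in WT cDC2. Its WT arrays were far apart, and without WT cDC2 replicate 2 the difference was -0.68 (adjusted p = 0.224). Clec4a4 lost its call without any 1 of the 4 arrays compared (-0.81 to -0.59, adjusted p = 0.0569 to 0.198). Clec4a4 read 220.6 and 221.7 in Flt3L KO cDC2, 294.5 and 293.3 in Flt3 KO cDC2 and 332.2 and 386.6 in WT cDC2. Cd4, the surface protein of one splenic cDC2 subset, read 414.3 and 500.1 in Flt3L KO cDC2, 664.9 and 675.7 in Flt3 KO cDC2 and 618.1 and 591.5 in WT cDC2, and was lower in Flt3L KO than in Flt3 KO (-0.56 ± 0.10, adjusted p = 0.0279). This call was lost on leaving out 3 of the 4 arrays (adjusted p = 0.0147 to 0.242). The median log2 difference of these 9 genes was -0.25 in Flt3L KO cDC2, and 2 of the 9, Esam and Spib, had a positive value. Esam read 141.9 and 137.3 in Flt3L KO cDC2 and 142.9 and 130.2 in WT cDC2. Spib read 89.2 and 76.8 against 64.6 and 68.9. Whether the share of a subset changed was not tested. In Flt3 KO cDC2, 0 of these 9 were called and 1 had an unadjusted p under 0.05.

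Tmem176a and Tmem176b encode related membrane proteins of the MS4A-like group that conduct cations in endosomal vesicles of dendritic cells. They were higher in Flt3 KO than in WT on every array of both cell types, and Tmem176a in cDC1 passed the test. Tmem176a read 325.5 and 400.6 in Flt3L KO cDC1, 438.4 and 454.2 in Flt3 KO cDC1 and 300 and 257.7 in WT cDC1. The 3 genotypes did not overlap, with Flt3 KO highest. It was at 160% of WT in Flt3 KO cDC1 (95% interval 136% to 189%), a log2 difference of 0.68 ± 0.11 with an adjusted p = 0.0427. It was the 1 gene of the 9 called in this comparison, against 0.0803% of all genes, and 6 of the 9 had an unadjusted p under 0.05, against 12.5% of all genes. The median over the 9 genes was 0.10 and over all genes 0.00. The difference stayed about as large but the adjusted p rose without Flt3 KO cDC1 replicate 1 (0.71, adjusted p = 0.276), Flt3 KO cDC1 replicate 2 (0.66, 0.321) or WT cDC1 replicate 1 (0.79, 0.0568). Without WT cDC1 replicate 2 it was 0.57 (adjusted p = 0.0228). With the replicate number as a block the adjusted p was 0.0572.

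Tmem176b read 369.1 and 413.9 in Flt3L KO cDC1, 406.1 and 485.2 in Flt3 KO cDC1 and 334.7 and 274.3 in WT cDC1, where the knockouts overlapped each other but not WT. It stood at 147% of WT in Flt3 KO cDC1 (95% interval 124% to 173%, adjusted p = 0.12). In Flt3L KO cDC1 the levels were 130% of WT for Tmem176a (adjusted p = 0.106) and 129% for Tmem176b (adjusted p = 0.125). Both passed with a trended and robust variance prior, as did Tmem176b in Flt3 KO cDC1.

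In cDC2, Tmem176a read 1743 and 1963 in Flt3L KO, 2330 and 2336 in Flt3 KO and 1792 and 1683 in WT. Tmem176b read 1853 and 2015 in Flt3L KO, 2584 and 2484 in Flt3 KO and 2034 and 1918 in WT. For both genes the Flt3 KO arrays were the highest and the Flt3L KO arrays overlapped WT. Tmem176a stood at 134% of WT in Flt3 KO cDC2 (95% interval 114% to 158%, adjusted p = 0.262) and Tmem176b at 128% (108% to 152%, adjusted p = 0.415). Levels in Flt3L KO cDC2 relative to Flt3 KO cDC2 were 79.3% for Tmem176a (adjusted p = 0.2) and 76.3% for Tmem176b (adjusted p = 0.145), and neither passed.

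These 2 genes lie next to each other on opposite strands of chromosome 6, and the nearest RefSeq start sites of the pair are 109 bases apart, so that their promoter windows share 208 bases. Their annotated intervals overlap, and whether the 2 probe sets separate them was not tested. The Tmem176a window is shown because most of it is also promoter of Tmem176b: it is chr6:48841233-48841532 on the plus strand of GRCm38.p6, from RefSeq, with AGGAAG in either orientation in capitals.
Tmem176a: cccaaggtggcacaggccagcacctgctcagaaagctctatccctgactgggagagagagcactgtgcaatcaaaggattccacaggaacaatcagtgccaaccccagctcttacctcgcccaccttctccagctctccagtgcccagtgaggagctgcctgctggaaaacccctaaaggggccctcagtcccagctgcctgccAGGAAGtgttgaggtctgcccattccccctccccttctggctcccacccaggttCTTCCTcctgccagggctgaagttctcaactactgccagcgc
It held 2 such matches, where 35.4% of all windows hold at least 1.

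The 9 genes did not vary as 1 group. After the mean of the 6 arrays of the same cell type was subtracted from each log2 value, the SD over 12 arrays was 0.12 for Dscam, 0.15 for Sirpa and Tgm2 and 0.16 for Ltb, against 0.23 for Tmem176b, 0.26 for Tmem176a, 0.28 for Cd7 and Tbx21 and 0.34 for Cd101. Tmem176a and Tmem176b followed each other most closely, with a Pearson r of 0.953. Cd7 followed Sirpa at 0.739 and Tbx21 at 0.708, while Tgm2 and Tmem176a ran opposite at -0.747, and Cd101 and Tmem176a had -0.28. These are descriptions over 12 arrays that share groups, so no p is given.

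**Figure D4:**
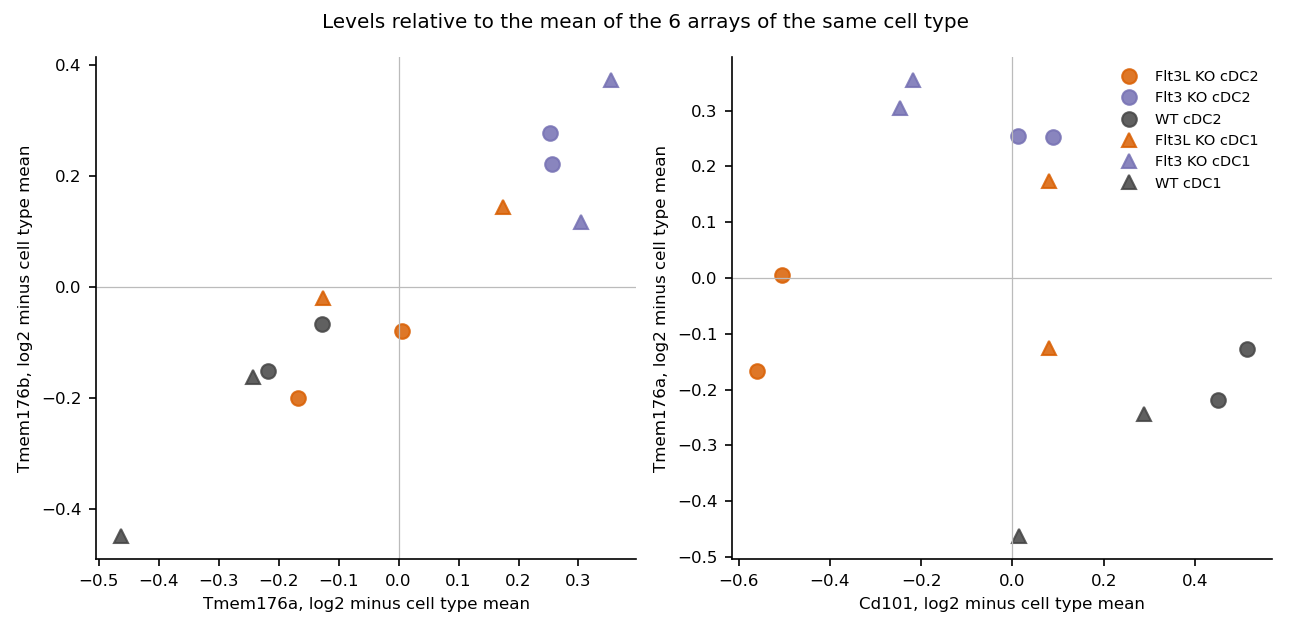
Each point is 1 of 12 arrays, with its log2 value minus the mean of the 6 arrays of its cell type, for Tmem176b against Tmem176a (left) and Tmem176a against Cd101 (right). The first pair runs along a line (Pearson r 0.953), with the Flt3 KO arrays at the high end, and the second pair does not (r -0.28).

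By the same centred measure over about 2180 genes that varied enough to compare, the genes most like Cd101 were Ctnnd2 (r 0.902), the histone gene H3c4 (0.878) and Adgre1 (0.87), which encodes F4/80. Those most like Cd7 were Cd226 (0.923), Fgr (0.909) and Klrk1 (0.906), the last 2 a Src family kinase and the NKG2D receptor. Ltb was followed by Ints6l (0.916), Mefv (0.9) and Prdm1 (0.9), and Tbx21 by App (0.911), Slfn5 (0.905) and H2bc14 (0.901). Tmem176a was followed, after its neighbour, by Serinc5 (0.937) and Asprv1 (0.936), and Tmem176b by Rasal2 (0.916) and Serinc5 (0.893). For the genes that varied least, the likeness was lower for Tgm2 (Lamc1 0.819, Polr1d 0.811, Hic1 0.782) and Dscam (Bbs10 0.801, Gpr162 0.781, Hoxa5 0.719), and Sirpa was followed by Card10 (0.889), Ndrg1 (0.886) and Nlgn2 (0.876). The centred measure leaves out the difference between cell types. Without centring, r was negative for Cd226 (-0.888) and Klrk1 (-0.787) with Cd7, and for Card10 (-0.814) and Nlgn2 (-0.869) with Sirpa. It was also negative for Polr1d (-0.702) with Tgm2, Asprv1 (-0.731) with Tmem176a, H3c4 (-0.219) with Cd101 and Slfn5 (-0.112) with Tbx21.

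Beside the 9 genes, 19 other cDC2 genes were tested. In Flt3L KO cDC2, 3 of the 19 were called lower and 0 higher, where 0.91% of all genes were called lower. The median log2 difference was -0.10 against 0.02 over all genes, and 6 of the 19 had a positive value, up to 0.39. Csf1r read 1581 and 1419 in Flt3L KO cDC2 against 1217 and 1180 in WT cDC2. Cx3cr1 read 541.1 and 433.9 against 355.5 and 385, and neither was called. Cd209a, the DC-SIGN lectin gene, read 759 and 799.1 in Flt3L KO cDC2, 1562 and 1517 in Flt3 KO cDC2 and 1587 and 1491 in WT cDC2, so that the Flt3L KO pair alone was low. It fell by 0.98 ± 0.13 on the log2 scale in Flt3L KO relative to WT (adjusted p = 0.00251). Adgre1 read 601.1 and 616.8 in Flt3L KO cDC2, 741.5 and 904.7 in Flt3 KO cDC2 and 995.7 and 942.6 in WT cDC2, an order shared with Cd101, and fell by 0.67 ± 0.10 in Flt3L KO (adjusted p = 0.00479). Leaving out 1 array kept the call of Cd209a in all 4 cases (adjusted p = 0.0112 to 0.039) and lost that of Adgre1 in 2 of 4 (0.025 to 0.0574). Clec4a4, given above, was the third. In Flt3 KO cDC2, 0 of the 19 were called by limma and 6 had an unadjusted p under 0.05, against 0.107% and 7.28% of all genes. In cDC1, Cd209a rose in Flt3 KO to 189% of WT (adjusted p = 0.0165, and 0.0152 to 0.194 on leaving out 1 array), and Relb rose in Flt3L KO as given above. Irf4, the cDC2 transcription factor, stood at 78.4% of WT in Flt3L KO cDC2 (adjusted p = 0.19) and at 83.8% in Flt3 KO cDC2 (adjusted p = 0.706).

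Genes linked to the ESAM-low cDC2 subset moved in both directions in Flt3L KO cDC2, with 2 called higher and 1 called lower of 12 tested. Of all 14953 genes tested there, 155 were called higher and 136 lower. Fcgr3, an activating Fc receptor, read 241.5 and 213.5 in Flt3L KO cDC2, 176 and 171 in Flt3 KO cDC2 and 124.1 and 130.1 in WT cDC2, and rose by 0.84 ± 0.08 in Flt3L KO (adjusted p = 0.000338). Lyz2, the myeloid lysozyme gene, read 1178 and 1259 in Flt3L KO cDC2, 1297 and 1129 in Flt3 KO cDC2 and 716.3 and 734.8 in WT cDC2. It rose in both, by 0.75 ± 0.09 in Flt3L KO (adjusted p = 0.00141) and 0.74 ± 0.09 in Flt3 KO (adjusted p = 0.00757). The lower gene was Cd209a. Leaving out 1 array kept the calls of Fcgr3 and Lyz2 in Flt3L KO in all 4 cases and lost that of Lyz2 in Flt3 KO in 3 of 4 (adjusted p = 0.0182 to 0.123). Of 8 tested genes linked to SIRPA, including Cd47 and the phosphatase genes Ptpn6 and Ptpn11, 0 were called in either knockout in cDC2. An unadjusted p under 0.05 was held by 1 of them in Flt3L KO and by 0 in Flt3 KO. Of all 14953 genes tested, 2185 and 1089 had such a p.

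Cd101, Cd209a and Clec4a4 were lower in Flt3L KO cDC2 than in WT cDC2. In Flt3 KO cDC2, Cd209a lay within the WT range, and Cd101 and Clec4a4 lay between. Many markers of macrophages, and fewer of monocytes, were higher in Flt3L KO cDC2, where 155 of all 14953 genes tested were called higher. Of 12 macrophage markers tested there, 7 were higher (Vcam1, C1qa, Mertk, C1qb, C1qc, Axl and Hmox1) and 1 was lower (Adgre1, which is also among the cDC2 genes), and 5 of these 8 (Vcam1, C1qa, C1qb, C1qc and Mertk) were called whichever 1 array was left out. In Flt3 KO cDC2, 12 of all 14953 genes tested were called higher. Among the 12 macrophage markers 2 were called higher, C1qa at 219% and Vcam1 at 143% of WT (limma, adjusted p = 0.0107 and 0.0321). These calls were lost in 3 of 4 and 4 of 4 cases on leaving out 1 array. The summed intensity of the 14 listed was 3028 to 3464 in Flt3L KO cDC2, 2284 to 2312 in Flt3 KO cDC2 and 2016 to 2026 in WT cDC2, and 965.6 to 1042, 1032 to 1200 and 1010 to 1023 in the same order in cDC1. C1qa read 790 and 568.9 in Flt3L KO cDC2, 363.2 and 279.8 in Flt3 KO cDC2 and 135.4 and 156.6 in WT cDC2. Cd5l, the first defining marker, averaged 26.1 in Flt3L KO cDC2, 20.6 in Flt3 KO cDC2 and 19.6 in WT cDC2, near the lower quartile of an array. Vcam1, the second, averaged 199.4, 125.2 and 87.7 in that order. Of 4 monocyte markers tested in Flt3L KO cDC2, 1 was called, Csf3r, the G-CSF receptor gene, at 160% of WT (adjusted p = 0.00845, and 0.0202 to 0.0922 on leaving out 1 array). The monocyte sum over 8 markers was 534.7 to 585.6 in Flt3L KO cDC2, 477.2 to 557.8 in Flt3 KO cDC2 and 427.8 to 452.4 in WT cDC2. The part of these markers in the members' values was not tested.

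Among cDC1 markers, 4 of 15 were called higher in Flt3L KO cDC2 (Cd36, Irf8, Cadm1 and Rab7b). Of all 14953 genes tested, 155 were called higher there. In Flt3 KO cDC2, 0 of the 15 were called, against 0.107% of all genes. There 9 of 15 had an unadjusted p under 0.05, against 7.28% of all genes. Leaving out 1 array kept the call of Cd36 in all 4 cases and lost that of Irf8 in 2, of Cadm1 in 3 and of Rab7b in 4 of 4. The list's sum in cDC2 was 8015 to 8101 in Flt3L KO, 8353 to 8481 in Flt3 KO and 7854 to 8048 in WT, against at least 37090 on any cDC1 array. Irf8, which cDC1 need, read 430.7 and 408.9 in Flt3L KO cDC2, 405.1 and 409.5 in Flt3 KO cDC2 and 310.9 and 275.3 in WT cDC2. Xcr1, the first defining marker, averaged 66.3 in Flt3L KO cDC2, 59.7 in Flt3 KO cDC2 and 66.6 in WT cDC2. Their part in the members' values was not tested either.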

How the data were processed

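RNA of cDC2 and cDC1 from Flt3L KO, Flt3 KO and WT spleens was measured on 12 arrays, grouped by the sample labels. Each array has 1 linear intensity for a probe set, taken as the authors deposited it; the summarisation and normalization are not given in the sources used here. Of 30177 probe sets, 21789 carry 1 gene symbol, and each of 19938 genes was read from its brightest probe set by mean. The lowest 0.25 of genes by mean log2 intensity (under 4.78) was left out, which leaves 14953 genes. Detection above background was not used, so differences of dim genes may be understated, and precision is set by how few arrays there are (median SE 0.0937 within a cell type and 0.133 for a difference of effects, log2).

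A model with a mean for each of the 6 groups was fitted to log2 intensity of the 12 arrays in limma 3.58.1 (R 4.3.3, statmod 1.5.0), with 6 residual degrees of freedom. Adjusted p-values (Benjamini-Hochberg) were taken over all genes tested in a comparison, and an adjusted p under 0.05 was called. The code was tested on simulated data. Percents of another group are back-transformed log2 differences, and their 95% intervals are not adjusted.

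The 9 members and all gene lists were chosen with earlier results of these data known, so their p-values are not independent of that choice. Genes named are the members, Flt3 and Flt3l, the 3 genes most like each member, called genes of the related lists (up to 4 a list, by smallest p), the first markers of other cells, and Irf8, Xcr1, Irf4 and Zbtb46. Genes that make up a count, and Klrd1, Csf1r and Cx3cr1, are named outside this rule, with their values seen. Likeness was Pearson's r of log2 values after subtracting the mean of the cell type, over genes with a centred SD of at least 0.15. Promoter windows and their positions are from RefSeq on GRCm38.p6, and 6 of the 9 members matched.

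The labels do not say whether same-numbered arrays share animals, and the main model did not pair them. Same-numbered arrays of different groups deviated together with correlations of -0.199 to 0.172. Between the cell types of 1 genotype the correlation was 0.146 in Flt3L KO, 0.088 in Flt3 KO and 0.159 in WT. Between groups of the 2 knockouts it was 0.037 to 0.172, and between a knockout and a WT group -0.199 to -0.049. Such small correlations cannot exclude shared spleens or a shared batch, which were not tested. Alternatives covered normalization, filters, probe set choice, the variance prior, the arrays fitted, a pseudocount, replicate blocks and leaving out each array.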

Additional observations from a re-analysis of the deposited data

Results flagged for a closer look

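The effect of the ligand knockout on Cd101 was called as different between the cell types. Cd101 stood at 49.5% of WT in Flt3L KO cDC2 and at 95.2% of WT in Flt3L KO cDC1, and the effect in cDC2 minus that in cDC1 was -0.94 ± 0.13 (SE) on the log2 scale (limma, adjusted p = 0.00693). Both Flt3L KO cDC2 arrays lay below both WT cDC2 arrays, while in cDC1 the Flt3L KO arrays lay within the WT range. In Flt3L KO cDC1 the intensity was 37.5 and 37.4, closer to the dim end of an array than in cDC2. The difference was called under all 17 alternatives, with an adjusted p between 0.00207 and 0.0474. The contrast is the change in the cDC2 minus cDC1 difference for which the genes were listed, so its p is not independent of the listing.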

How the results depend on the processing

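No called value of the 9 genes changed direction under any alternative run: 28 of 990 recomputed values turned sign, none of them called, each of a main size of at most 0.171 on the log2 scale. Cd101 in Flt3L KO cDC2 against WT was called under all 13 alternatives (log2 -1.05 to -0.89, adjusted p 2.05e-05 to 0.00562). The call of Cd101 for the difference of the ligand effect held under all 17. The other 3 member calls were less stable, and the causes were not tested. For Flt3 KO against WT in cDC1 (1 gene called, Tmem176a), 0 were called after quantile normalization, without the filter, with probe sets of a gene averaged, with only the arrays compared and with a replicate block, and 2 with a trended and robust variance prior; leaving out 1 array gave 0 to 2. For Flt3L KO against WT in cDC1 (1, Cd7), 2 were called with the lowest 0.5 of genes left out, 5 with the trended and robust prior, 0 with only the arrays compared and 2 on log2(intensity + 16); leaving out 1 array gave 0 to 2. For Flt3L KO against Flt3 KO the lowest 0.5 left out, the trended and robust prior and log2(intensity + 16) each gave 2 in cDC2 (against 1) and 1 in cDC1 (against 0); leaving out 1 array gave 0 to 1 in cDC2. For Flt3 KO against WT in cDC2 (0), log2(intensity + 16) gave 1, Cd101 (adjusted p = 0.0484). For the difference of the ligand effect (1), leaving out 1 array gave 1 to 2, the higher count without WT cDC1 replicate 2 (Tbx21). The replicate block changed the members' count for Flt3 KO against WT in cDC1, to 0, and in no other comparison. With crossed replicate numbers, an alternative chosen after seeing the data, 2 were called in cDC1 for Flt3L KO and 2 for Flt3 KO against WT.

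Over all genes, the calls for Flt3L KO against WT in cDC2 went between 72 and 164 on leaving out 1 array and between 247 and 487 otherwise (main 291). The same ranges were 2 to 6 and 9 to 36 for Flt3 KO in cDC2 (16), 25 to 606 and 6 to 545 for Flt3L KO in cDC1 (178), and 3 to 1132 and 3 to 35 for Flt3 KO in cDC1 (12). For Flt3L KO against Flt3 KO they were 8 to 130 and 102 to 268 in cDC2 (139) and 16 to 63 and 78 to 401 in cDC1 (132). For the differences of effects they were 20 to 484 and 37 to 208 for the ligand (74) and 0 to 170 and 0 to 5 for the receptor (0). The highest leave-out counts against WT cDC1 and for the differences of effects all came without WT cDC1 replicate 2. With 2 arrays per group, a change of a member below about the width of its interval could not be told from none.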
